A study of Mus musculus with 12 samples.

Results

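Muscle of mice injected with recombinant human IL-8 was compared with muscle of mice injected with recombinant KC, 2 chemokines given at the same dose on the same schedule. The members were the arrays titled IL-8 1 to 5 and KC 1 to 4, which are 9 of the 12 arrays of the series, and the 23185 of 25206 array entries that carry exactly 1 gene symbol. The arrays of vehicle-injected mice were not used, so each difference given here is between the 2 chemokines and not a change from untreated muscle. Per the labels, IL-8 or KC was injected intraperitoneally at 50 µg/kg every other day for 6 days. The methods of the study describe the IL-8 mice as 8-week-old male C57BL/6J mice with the tibialis anterior (TA) muscle taken. The labels of the KC arrays name skeletal muscle, but no age, strain or day of harvest was found for the mice given KC. The methods of the study do not describe the mice given KC. The labels do not say how the arrays were divided over RNA extraction or hybridisation days, so the p-values measure the spread between these arrays only.

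IL-8 (CXCL8) is a human chemokine that draws neutrophils, and it acts through the receptors CXCR1 and CXCR2. Mice have no gene for IL-8. KC is the mouse chemokine encoded by Cxcl1 and acts mainly through CXCR2, so it is often used as the mouse counterpart of human IL-8. Skeletal muscle is made of multinucleated fibres that carry the contractile apparatus and many mitochondria, with blood vessels, fibroblasts and resident immune cells between them.

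All values are log2 expression values after RMA (robust multi-array average), and a difference of 1 is a 2-fold difference. A gene was called where limma's Benjamini-Hochberg adjusted p was at most 0.1 and the fold change at least 1.5. IL-8 and KC muscle differed at 700 of 23185 genes (3.02%), of which 374 were higher with IL-8 (1.61% of the genes tested) and 326 lower (1.41%). At an unadjusted p below 0.05, 4598 genes differed. For 16472 genes (71.0%) the 95% interval of the difference lay within a 1.5-fold change in either direction. In 168 of the higher and 229 of the lower genes the arrays of the groups did not overlap, against 574 genes (2.48%) and 974 genes (4.2%) among all genes tested, 1548 in all (6.68%). The adjusted p of the called genes lay close to the threshold, between 0.0642 and 0.0997, apart from Sec61b at 0.0279.

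The arrays were not equally typical of their groups. On the first principal component, which held 39.8% of the variance, the KC arrays 1 to 4 had scores of -7.98, 14.4, 34.4 and 49.9, and the IL-8 arrays 1 to 5 had scores of 2.66, -25.8, -21.6, -24.5 and -21.5. KC 1 and IL-8 1 thus lay between the other arrays of the groups. Each array was also placed between the group means of the other arrays over the 500 genes with the smallest p without that array, where 0 is the KC mean and 1 the IL-8 mean. KC 1 lay at 0.748 and IL-8 1 at 0.45 on this scale, KC 2 at 0.455, and the remaining 6 arrays between -0.387 and -0.029 for KC and between 0.862 and 1.03 for IL-8. IL-8 1 also carried liver transcripts, with Alb (albumin) at 7.70 against 3.14 to 5.36 in the other 8 arrays and Fgb (fibrinogen beta) at 6.82 against 1.80 to 2.19. Without KC 1 the count of called genes was 1741, and without IL-8 1 it was 1130. Without IL-8 2, IL-8 3, IL-8 4 or KC 3 it was 0 (between 3436 and 3896 genes at an unadjusted p below 0.05), without KC 4 it was 1 and without IL-8 5 it was 8. All 700 genes kept their direction in each of these fits. They were chosen for large differences on these same arrays, so this is no independent check. The skeletal muscle fibre markers were high in every array, with a mean of 11.27 to 11.58 in KC and 11.37 to 11.70 in IL-8 muscle.

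Some of the clock genes, the period genes among them, were higher in IL-8 than in KC muscle. In the core clock, CLOCK and ARNTL (BMAL1) bind E-box elements and drive the period (Per) and cryptochrome (Cry) genes, whose proteins then repress them. NR1D1 (REV-ERBα) represses Arntl, and DBP and TEF act on D-box elements. Of 21 clock genes measured, 6 were called higher with IL-8 (28.6%, against 1.61% of all genes) and 0 lower, with a median difference of 0.43 against -0.05 for all genes. The mean of the 21 genes was 5.77 to 5.96 in the KC arrays and 6.19 to 6.36 in the IL-8 arrays, without overlap.

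A promoter window each of Per1 and Per3 is shown because these period genes had the smallest p among the clock genes and these windows hold matches to the elements named above. Per1 has a second window in the table, chr11:69099902-69100201, which holds neither sequence and is not printed. They run from upstream of a transcription start to just past it, from RefSeq on GRCm38.p6, 5′ to 3′ on the strand of the gene. Capitals mark CACGTG, the E-box, in the Per1 window at chr11:69098699-69098998 (+ strand), and TTATGTAA, a D-box sequence, in the Per3 window at chr4:151044616-151044915 (- strand).
Per1: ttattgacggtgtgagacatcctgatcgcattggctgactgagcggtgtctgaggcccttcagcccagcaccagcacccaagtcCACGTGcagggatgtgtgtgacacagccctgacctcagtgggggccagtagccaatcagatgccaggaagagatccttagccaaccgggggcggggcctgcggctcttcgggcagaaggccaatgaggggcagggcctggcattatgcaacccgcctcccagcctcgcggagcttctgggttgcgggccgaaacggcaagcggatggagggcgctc
Per3: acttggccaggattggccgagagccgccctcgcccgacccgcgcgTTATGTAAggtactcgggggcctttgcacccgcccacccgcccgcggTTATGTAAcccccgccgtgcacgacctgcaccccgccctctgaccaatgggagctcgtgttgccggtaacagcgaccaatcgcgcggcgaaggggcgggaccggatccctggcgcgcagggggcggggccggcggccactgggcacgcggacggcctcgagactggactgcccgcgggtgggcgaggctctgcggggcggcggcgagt
Both strands were searched. The E-box letters were present in 7.15% of 32851 mouse promoter windows and the D-box letters TTATGTAA, which the Per3 window holds at 2 places, in 0.938%. Of the 6 called clock genes 5 had a window in the table, and 1 of these held the E-box letters. Of the other clock genes, 4 of 13 held them. A match to these letters is a description of the sequence only.

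Per1 was at 6.38, 6.62, 6.03 and 6.24 in KC 1 to 4 and at 7.32, 7.74, 7.33, 7.75 and 7.26 in IL-8 1 to 5. Every IL-8 array was above every KC array, and the difference was 1.16 ± 0.15 (SE; adjusted p = 0.0642, limma). Per3 was at 5.09, 4.68, 4.34 and 4.53 in KC and at 5.53, 5.56, 5.52, 5.48 and 5.63 in IL-8 muscle, a difference of 0.88 ± 0.14 (SE). The IL-8 arrays lay within a narrow band above all KC arrays, of which KC 1 was the highest. Per2 was at 4.17, 4.28, 3.89 and 4.09 in KC and at 4.60, 5.09, 5.00, 4.97 and 4.82 in IL-8 muscle, again without overlap. Its difference of 0.79 ± 0.12 (SE) was the smallest of the 3 period genes. For the repressor Cry2 the KC arrays read 4.63, 4.46, 4.35 and 4.19 and the IL-8 arrays 5.14, 5.38, 5.01, 5.14 and 5.80, a difference of 0.89 ± 0.16 (SE). Nr1d1 was at 7.68, 7.77, 7.21 and 7.20 against 8.09, 8.67, 8.80, 8.96 and 8.15, a difference of 1.07 ± 0.20 (SE). Dbp was at 7.43, 7.54, 7.26 and 7.30 against 8.47, 8.34, 8.55, 8.28 and 7.48. Here IL-8 5 fell within the range of the KC arrays while the other 4 IL-8 arrays were above it (difference 0.84 ± 0.19 SE, adjusted p = 0.0718).

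**Figure D1:**
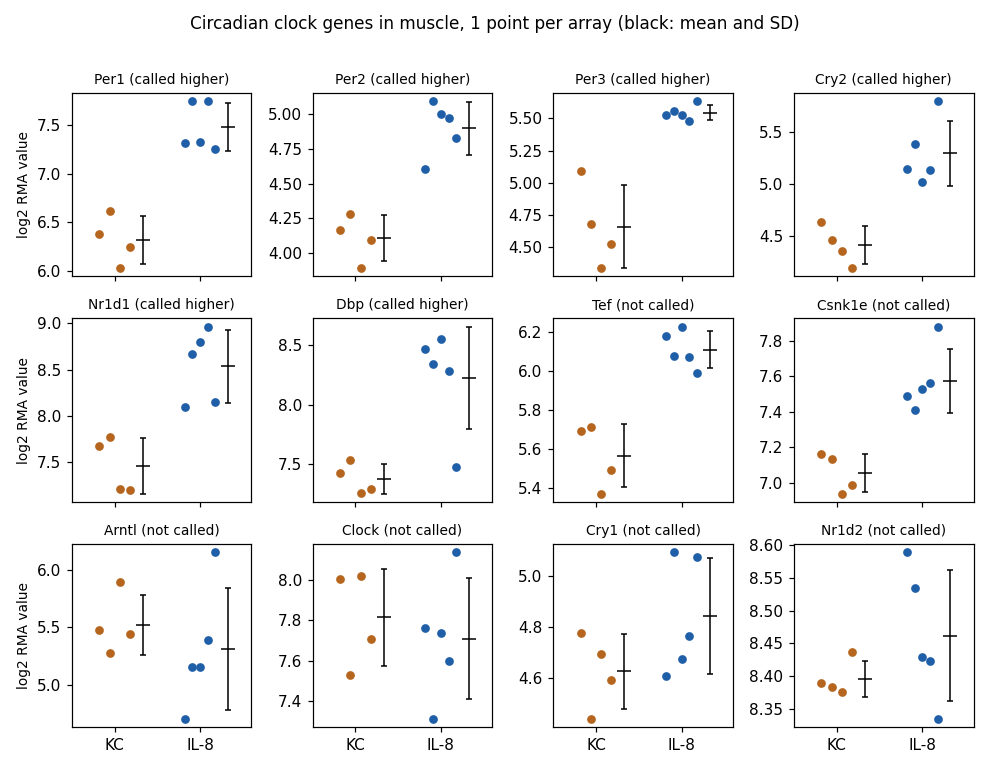
Log2 RMA values of 12 circadian clock genes, 1 point per array (brown, 4 KC arrays; blue, 5 IL-8 arrays), with the group mean and SD in black; each panel has its own vertical scale. Per1, Per2, Per3, Cry2 and Nr1d1 do not overlap between the groups, IL-8 5 lies with the KC arrays in Dbp, and Arntl, Clock, Cry1 and Nr1d2 overlap.

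Of the clock genes that were not called, Tef (0.55 ± 0.11 SE, adjusted p = 0.0642), the kinase gene Csnk1e (0.52 ± 0.11 SE, adjusted p = 0.0671) and the repressor Bhlhe40 (0.47 ± 0.11 SE, adjusted p = 0.0721) passed the p threshold without reaching 1.5-fold, and their arrays did not overlap. The activators did not pass the test. Arntl differed by -0.21 (95% interval -0.74 to 0.32), Clock by -0.11 (-0.47 to 0.26) and Npas2, which can stand in for Clock, by -0.16 (-0.58 to 0.26). Nr1d2, the paralogue of Nr1d1, differed by 0.07 with an interval of -0.13 to 0.26, and Cry1 by 0.22 with an interval of -0.07 to 0.51. No source used here gives the hour at which each mouse was killed. Without IL-8 2, IL-8 3, IL-8 4, KC 3 or KC 4 none of the 21 genes was called, without IL-8 5 there were 2 calls, and the list median in those fits was between 0.36 and 0.49.

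Small nucleolar RNAs (snoRNAs) and small Cajal body RNAs (scaRNAs), a class chosen after values were seen, were lower with IL-8 throughout. snoRNAs guide the chemical modification of ribosomal RNA, the C/D box type (Snord) for 2′-O-methylation and the H/ACA box type (Snora) for pseudouridylation, and scaRNAs guide the same changes on spliceosomal RNAs. Most of them are cut out of introns of other genes. Of 115 entries annotated as such, 63 were called lower with IL-8 (54.8%, against 1.41% of all genes) and 0 higher, all 115 differences were negative, and the median was -0.83. In 45 entries every IL-8 array was below every KC array, which held for 4.2% of all genes. By type, 40 of 65 C/D box, 16 of 34 H/ACA box and 4 of 8 scaRNA entries were called lower, with medians of -0.82, -0.80 and -0.72.

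The mean of the 115 entries was 6.58, 7.36, 7.01 and 7.42 in KC 1 to 4 and 6.32, 6.40, 6.02, 6.30 and 6.40 in IL-8 1 to 5. All IL-8 arrays were lower, and KC 1 was nearest to them. Snord19 was at 3.77, 4.71, 4.37 and 4.66 in KC and at 3.05, 3.19, 3.31, 3.45 and 3.41 in IL-8 muscle, a difference of -1.10 ± 0.18 (SE; adjusted p = 0.0642). Snord1b was at 7.53, 8.72, 8.58 and 8.90 against 7.23, 7.46, 6.97, 7.40 and 6.88 (-1.24 ± 0.25 SE). KC 1 was the lowest KC array in both, and neither overlapped between the groups. Snord45b had the largest difference of the class, -1.60 ± 0.43 (SE), at 4.68, 4.74, 4.03 and 5.53 in KC and 2.83, 4.57, 2.08, 3.36 and 2.89 in IL-8 muscle, with IL-8 2 inside the KC range. Snord13, which is transcribed from a gene of its own and guides ribosomal RNA acetylation in human cells, was at 7.10, 8.19, 8.14 and 8.42 against 6.98, 7.0, 6.00, 6.84 and 6.72. It differed by -1.25 ± 0.27 (SE; adjusted p = 0.0671). Scarna10 was at 4.00, 5.02, 4.10 and 5.05 against 2.93, 3.88, 2.58, 2.79 and 3.16 (-1.47 ± 0.29 SE). Some snoRNA families have members of near-identical sequence, so single entries may share signal.

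The genes that enclose these small RNAs were mostly not called, as was the case for all genes tested. For 93 of the 115 entries, the RefSeq coordinates placed the small RNA within a tested gene, 70 genes in all. Of these 70 genes 1 was called higher and 1 lower, close to the shares of all genes (1.61% and 1.41%). Their median difference was -0.02, against -0.05 for all genes. In 92 of 96 pairs of small RNA and enclosing gene the difference of the small RNA was the lower value. The class was chosen after values were seen and all 115 of its differences were negative. A count of this kind was therefore largely set in advance for genes centred near 0. Some genes enclose several entries, so the pairs are not independent. Snora30 differed by -0.77 and lies within Srcap, a chromatin remodeller that was higher by 1.34. Scarna10 (-1.47) lies within the condensin gene Ncapd2 (0.43), and Snord1b (-1.24) within the host transcript Snhg16 (0.02). In Snord87 (-0.84) the host Snhg6 was lower as well (-0.78 ± 0.21 SE, adjusted p = 0.0884). The strand was not used in placing the small RNAs.

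**Figure D2:**
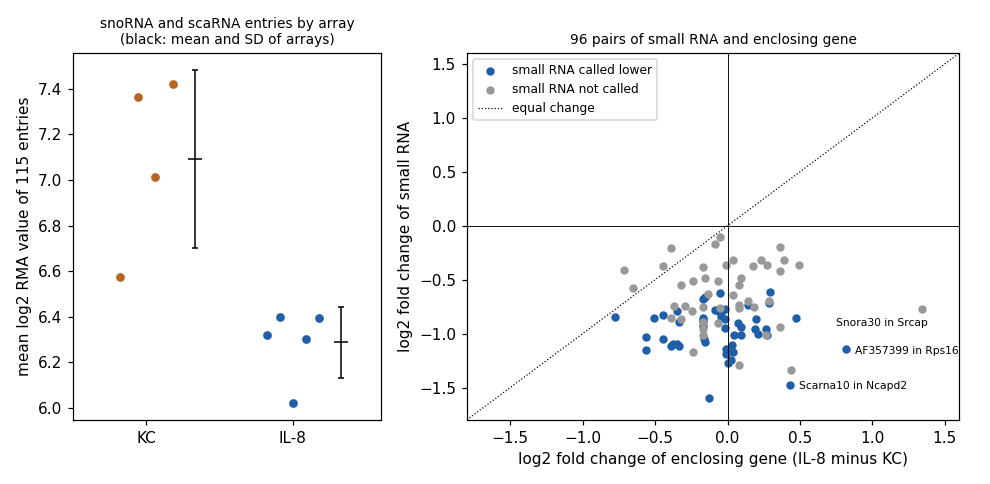
Left, mean log2 RMA value of the 115 snoRNA and scaRNA entries in each array (brown, KC; blue, IL-8) with the group mean and SD in black. Right, log2 fold change (IL-8 minus KC) of each small RNA against that of the gene enclosing it for 96 pairs, coloured by the small RNA's call, with a dotted line for equal change; 92 points lie below the line.

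The class median was negative in every setting tried for the fit, between -1.02 and -0.62. All differences stayed negative except for up to 4 entries. Settings that changed only the test or the threshold reuse the same differences, so the direction could not change there. The class was also chosen after values were seen on these arrays, so the kept direction is no independent check. The count of calls was 0 without IL-8 2, 3, 4 or 5 and without KC 3 or 4 (94 to 108 entries at an unadjusted p below 0.05) and 91 without KC 1. A Welch t-test, an exact permutation test, a block by replicate number and an adjusted p of at most 0.05 also gave 0 calls. So did leaving out KC 3 and KC 4 together, with 74 entries at an unadjusted p below 0.05. The count was 37 after the trend with gene span described next was removed. Of the other classes, pseudogene entries had a median of -0.13 with 29 of 526 called lower (5.51%, against 1.41% of all genes). miRNA entries had a median of -0.08 with 2 of 529 called lower, and olfactory, vomeronasal and taste receptor genes had a median of -0.20 with 25 of 1392 called lower (1.8%).

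The direction of the calls went with the span of the gene, the distance from the first to the last base of its RefSeq annotation. Among protein-coding genes divided into 5 equal bins of span, in the bin with the shortest spans (up to 4840 bases) 0.359% were called higher and 2.05% lower. In the bin with the longest spans (from 60981 bases) 3.46% were called higher and 0.282% lower. Spearman's rho between difference and span was 0.219 across 19525 protein-coding genes, which are not independent replicates. The slope also varied within the groups. The rho of an array's deviation from the mean of all arrays on gene span was 0.07 for KC 1 and -0.09, -0.20 and -0.22 for KC 2 to 4, and 0.05 for IL-8 1 and 0.11 to 0.20 for IL-8 2 to 5. Fitting the differences without this trend left 563 calls, 349 higher and 214 lower.

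**Figure D3:**
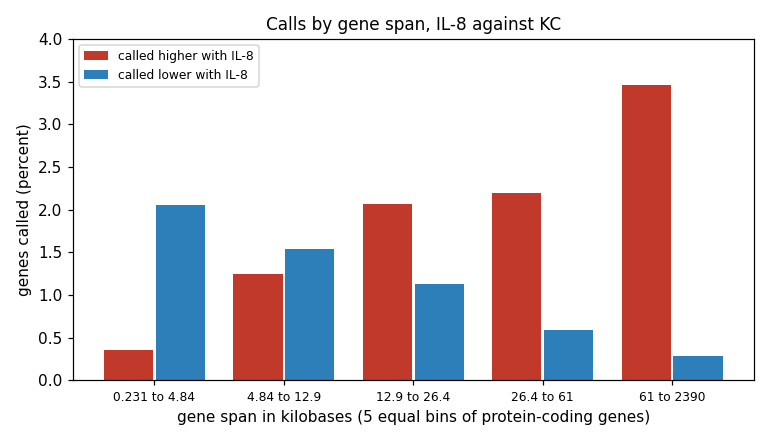
Percent of protein-coding genes called higher (red) and lower (blue) with IL-8 in 5 equal bins of gene span, 3905 genes each, with spans in kilobases on the horizontal axis. The percent called higher goes from 0.359 to 3.46 and the percent called lower from 2.05 to 0.282 between the shortest and the longest bin.

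Some of the respiratory chain genes were lower with IL-8. The respiratory chain moves electrons through complexes I to IV and uses the proton gradient for ATP synthesis in complex V. Of 34 complex I genes 8 were called lower (23.5%, against 1.41% of all genes) and 0 higher, with a median of -0.47. Of 32 genes of complexes II to V 8 were called lower (25.0%) and 0 higher, with a median of -0.30. Over both lists 56 of 66 differences were negative, and 22 genes had every IL-8 array below every KC array, which held for 4.2% of all genes. The mean of the complex I genes was 8.68 to 8.99 in the KC arrays and 8.17 to 8.59 in the IL-8 arrays, without overlap.

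Ndufb2, an accessory subunit of the membrane arm of complex I, was at 9.75, 10.06, 9.92 and 10.41 in KC and at 9.23, 9.28, 9.08, 8.96 and 8.90 in IL-8 muscle (-0.95 ± 0.14 SE, adjusted p = 0.0642). Atp5e, the epsilon subunit of ATP synthase, was at 8.86, 9.30, 9.31 and 9.50 against 8.22, 8.56, 8.43, 8.35 and 7.97 (-0.94 ± 0.15 SE). Both were separated completely. Atp5k, another small ATP synthase subunit, was at 10.21, 10.52, 10.71 and 10.76 against 9.90, 9.66, 9.73, 9.65 and 9.70 (-0.82 ± 0.12 SE). Uqcr11 (-0.79 ± 0.14 SE) and Uqcrq (-0.69 ± 0.14 SE) belong to complex III. Cox7a1 (-0.61 ± 0.14 SE) and Cox8b (-0.60 ± 0.12 SE), the muscle forms of 2 small cytochrome c oxidase subunits, belong to complex IV. For all 4, every IL-8 array was below every KC array.

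Most subunit genes of both lists were not called, among them 6 that were chosen after values were seen. Ndufs1, the largest complex I subunit, differed by 0.18 (95% interval -0.16 to 0.51), and Ndufv1, which binds NADH, by 0.07 (-0.24 to 0.37). Sdha, the flavoprotein of complex II, differed by 0.46 (0.07 to 0.85; adjusted p = 0.183). Uqcrc1 of complex III and the alpha and beta subunits of ATP synthase gave intervals around 0, with Uqcrc1 at -0.02 (-0.30 to 0.27), Atp5a1 at 0.15 (-0.13 to 0.43) and Atp5b at 0.10 (-0.13 to 0.32). The called genes of both lists had a median span of 3564 bases and the others of 8046.5 bases, and rho between difference and span was 0.363 across the 66 genes. After the trend with gene span was removed 6 genes of complex I and 6 of complexes II to V were called lower, with list medians of -0.42 and -0.26.

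**Figure D4:**
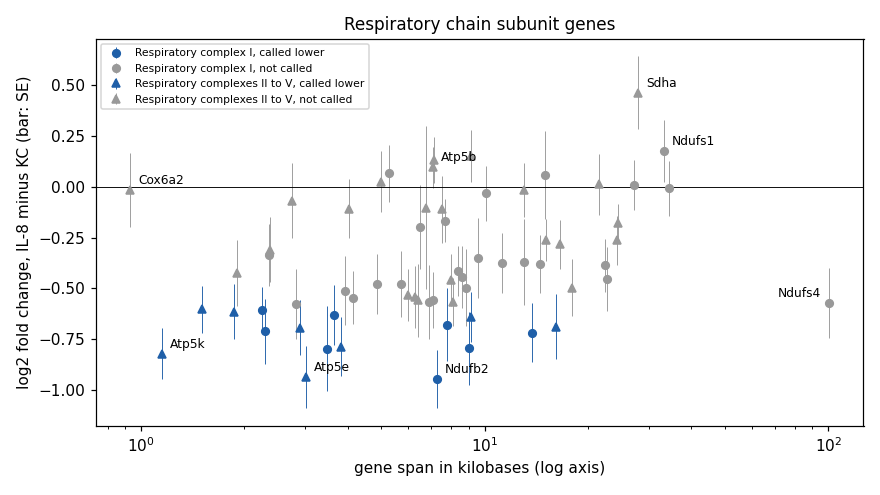
Log2 fold change (IL-8 minus KC, bars are SE) of 66 respiratory chain genes against gene span on a log axis; circles are complex I, triangles complexes II to V, and blue marks the 16 genes called lower. The called genes span at most 16182 bases, and Sdha and Ndufs1 lie above 0.

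Mitochondrial ribosomal protein genes, whose products translate the few proteins encoded in mitochondrial DNA, were lower in 10 of 39 (25.6%, against 1.41% of all genes) and higher in 0, with a median of -0.41. Mrps28 was at 7.44, 7.65, 7.86 and 7.87 in KC and at 6.85, 7.19, 7.25, 6.94 and 6.89 in IL-8 muscle (-0.68 ± 0.13 SE). Mrps33 (-0.76 ± 0.15 SE) and Mrpl52 (-0.87 ± 0.25 SE) also had no overlap. Slirp, which stabilises mitochondrial mRNAs, was at 5.77, 6.17, 6.47 and 6.83 against 5.64, 4.67, 5.52, 5.14 and 5.04 (-1.11 ± 0.23 SE). Of 32 cytosolic ribosomal protein genes only Rplp1 (-0.62 ± 0.13 SE) and Rps20 (-0.59 ± 0.16 SE) were called lower (6.25%). Fatty acid oxidation and tricarboxylic acid cycle genes (25 genes, median 0.13) and glycolysis and glycogen genes (22 genes, median 0.16) had 0 calls in either direction. Cs, citrate synthase, did not reach 1.5-fold (0.52 ± 0.15 SE, adjusted p = 0.0986), with every IL-8 array above every KC array.

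Part of the genes for transcriptional coregulators, chromatin enzymes and very large structural proteins were called higher with IL-8. Of 26 PGC-1 and nuclear receptor coregulator genes 9 were called higher (34.6%, against 1.61% of all genes) and 0 lower, with a median of 0.54. Of 44 chromatin modifier genes 10 were called higher (22.7%, median 0.46), and of 34 genes for giant sarcomere, cytolinker and membrane proteins 6 (17.6%, median 0.48), with 0 lower in each. The coregulator genes named below span 65869 (Ep300) to 205109 bases (Med13l). They fall in the longest bin of span (from 60981 bases), where 3.46% of genes were called higher. Kmt2d (42409 bases) and Dag1 (59117 bases) span less. The lists were not compared with genes of like span. In these 3 lists KC 1 and IL-8 1 overlapped: the coregulator mean was 5.74 in KC 1 and 5.13 to 5.54 in KC 2 to 4, and 5.68 in IL-8 1 and 5.89 to 6.09 in IL-8 2 to 5.

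Nrip1, which encodes the corepressor RIP140, was at 6.43, 6.42, 6.26 and 6.31 in KC and at 6.85, 7.23, 7.22, 7.38 and 7.56 in IL-8 muscle (0.89 ± 0.14 SE, adjusted p = 0.0642). The groups did not overlap. The paralogous acetyltransferases Crebbp (0.82 ± 0.21 SE) and Ep300 (0.92 ± 0.24 SE), the receptors Ppard (0.91 ± 0.22 SE) and Rxra (0.89 ± 0.22 SE) and the Mediator subunit Med13l (0.93 ± 0.22 SE) were called, each with overlapping arrays. Kmt2d, a histone H3 lysine 4 methyltransferase, was at 5.31, 4.54, 4.06 and 3.65 in KC and at 4.64, 6.17, 6.13, 6.40 and 6.37 in IL-8 muscle (1.56 ± 0.39 SE, adjusted p = 0.0756). IL-8 1 lay within the KC range and the other IL-8 arrays above it. Ryr1, the calcium release channel of the sarcoplasmic reticulum, was at 10.11, 9.24, 8.36 and 7.98 against 9.51, 10.72, 10.60, 10.95 and 10.68 (1.57 ± 0.40 SE, adjusted p = 0.0786). KC 1 was above IL-8 1. Sptb, beta-spectrin (1.38 ± 0.35 SE), and Myo18b (1.22 ± 0.31 SE) had the same overlap, whereas Ldb3, a Z-disc protein (0.72 ± 0.16 SE), and Dag1, dystroglycan (0.81 ± 0.19 SE), had none.

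**Figure D5:**
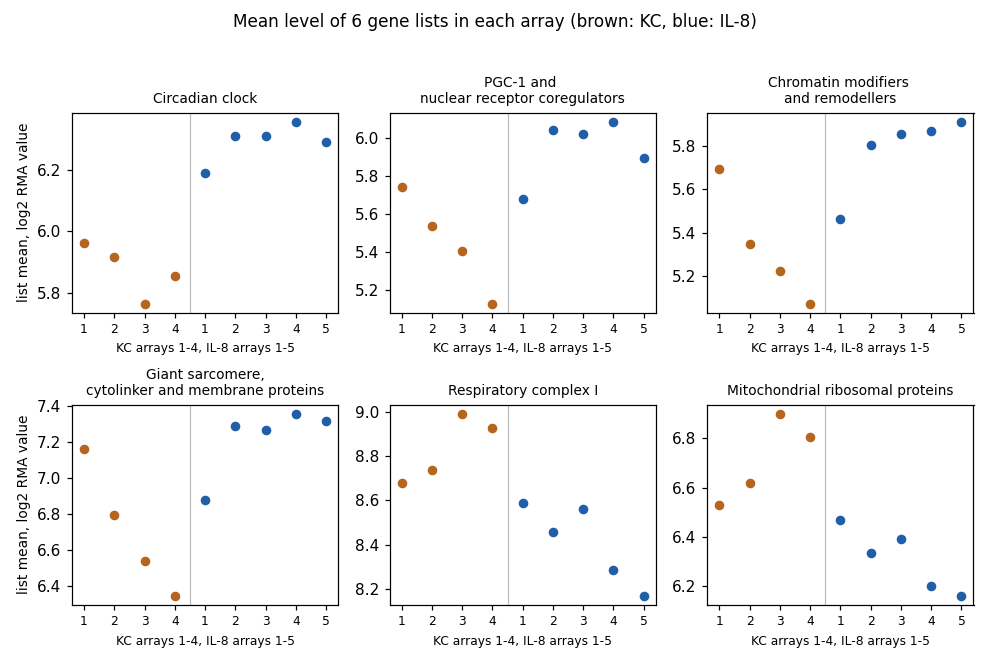
Mean log2 RMA value of 6 gene lists in each array (KC 1 to 4 brown, IL-8 1 to 5 blue), each panel with its own scale. The clock, complex I and mitochondrial ribosomal lists do not overlap between groups, whereas KC 1 lies above IL-8 1 in the coregulator, chromatin and giant protein lists.

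Genes of the insulin and FoxO pathways that are tied to muscle mass were partly higher with IL-8. FoxO transcription factors are restrained by insulin and IGF signalling and drive genes of protein breakdown and fasting metabolism. Of 28 genes in the FoxO list 4 were called higher (14.3%, against 1.61% of all genes) and 0 lower, with a median of 0.25. Foxo1 was at 5.27, 5.43, 5.27 and 5.19 in KC and at 5.85, 6.33, 6.21, 6.55 and 6.36 in IL-8 muscle. This separation was complete, and the difference was 0.97 ± 0.14 (SE; adjusted p = 0.0642). Irs2, the insulin receptor substrate, was at 4.23, 3.71, 3.33 and 3.61 against 4.18, 5.06, 4.98, 5.18 and 5.05, with IL-8 1 just below KC 1 (1.17 ± 0.22 SE). Pdk4, the kinase that shuts pyruvate dehydrogenase, differed by 0.60 ± 0.11 (SE) without overlap, and Fbxo31 by 0.78 ± 0.22 (SE) with overlap. Foxo3 was not called (0.38, 95% interval 0.02 to 0.73). Of 26 genes of insulin, IGF and mTOR signalling, 4 were called higher (15.4%, Foxo1 and Irs2 included) with a median of 0.44. The other called genes were Rptor (0.90 ± 0.21 SE) and Tsc2 (1.06 ± 0.28 SE), which encode a partner and a brake of mTORC1. Both had overlapping arrays.

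The muscle ubiquitin ligases of atrophy were not called. Trim63 (MuRF1) was at 8.80, 8.65, 8.75 and 8.68 in KC and at 8.20, 8.28, 8.17, 8.46 and 10.26 in IL-8 muscle. IL-8 1 to 4 were below all KC arrays and IL-8 5 was far above them, so that the mean difference was -0.04 (95% interval -0.84 to 0.75), and without IL-8 5 it was -0.44 (adjusted p = 0.106). Fbxo32 (atrogin-1) was at 8.13, 7.28, 7.21 and 7.06 in KC and 7.25, 7.77, 8.0, 8.10 and 10.70 in IL-8 muscle. Its difference was 0.94 ± 0.56 (SE; adjusted p = 0.381) with IL-8 5 and 0.36 without it. The same array was the highest for the metallothionein Mt1 (10.41, against 7.22 to 8.49 in the others) and for the mean of 29 proteasome subunit genes (8.08, against 7.44 to 7.76), a list with 0 calls. Ubr4, an N-degron ubiquitin ligase, was at 6.69, 6.01, 5.39 and 4.91 against 6.20, 7.15, 6.97, 7.40 and 7.69 (1.33 ± 0.35 SE, adjusted p = 0.0851), with KC 1 above IL-8 1. Ubr2 was not called (0.70 ± 0.21 SE, adjusted p = 0.103). Cblb, which targets insulin receptor substrates, was higher by 0.62 ± 0.11 (SE) without overlap. Among 29 autophagy genes 4 were called higher (13.8%, against 1.61% of all genes), the initiating kinase gene Ulk1 (1.24 ± 0.33 SE), its partner Atg13 (0.60 ± 0.13 SE), the lysosomal regulator Tfeb (0.62 ± 0.17 SE) and Wdfy3 (0.69 ± 0.17 SE). Only Atg13 had no overlap between the groups. The autophagy list means overlapped, at 6.18 to 6.49 in KC and 6.38 to 6.71 in IL-8 muscle.

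Genes of glucocorticoid response were called higher in 3 of 17, Per1, Pdk4 and Zbtb16 (17.6%, against 1.61% of all genes), and 0 were lower. The list median was 0.52, and 9 of the 17 had an unadjusted p below 0.05. Zbtb16, a transcription factor also called PLZF, was at 6.96, 6.76, 6.34 and 6.67 in KC and at 7.35, 7.99, 7.90, 8.04 and 7.74 in IL-8 muscle. Its difference was 1.12 ± 0.16 (SE) without overlap. Other genes of the list were not called, among them Fkbp5 (0.65 ± 0.23 SE, adjusted p = 0.149) and Tsc22d3, known as GILZ (0.03, 95% interval -0.21 to 0.28).

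Among the genes called higher without overlap, the naming rule, which leaves out small RNAs, took the 15 with the largest differences, Per1, Nr1d1 and Zbtb16 included. Pnpla2, the largest of them, encodes the adipose triglyceride lipase that starts the breakdown of stored fat. It was at 7.67, 7.51, 7.25 and 6.15 in KC and at 7.82, 8.59, 8.34, 8.55 and 8.90 in IL-8 muscle (1.30 ± 0.30 SE, adjusted p = 0.0718). KC 1 and IL-8 1 were close, and KC 4 was the lowest. The lipid droplet protein gene Plin4 (1.12 ± 0.25 SE) was also called, with overlapping arrays, as was the triglyceride-forming Dgat2 (0.91 ± 0.24 SE) without overlap. In all, 3 of 21 genes of lipolysis and lipid storage were higher (14.3%, against 1.61% of all genes) and 0 lower. Atp1b2, a beta subunit of the sodium pump, was at 8.18, 7.86, 7.17 and 6.84 against 8.31, 8.98, 8.71, 9.11 and 8.83 (1.28 ± 0.26 SE). The amino acid transporters Slc7a8 (1.27 ± 0.23 SE) and Slc38a3 (1.15 ± 0.22 SE), the proton pump subunit Atp6v0a1 (1.15 ± 0.26 SE), the lysosomal protein Sidt2 (1.10 ± 0.23 SE) and the transcription factor Foxk1 (1.10 ± 0.18 SE) followed. The remaining genes of the 15 were Tpbgl (1.20 ± 0.24 SE), Mn1 (1.12 ± 0.28 SE), Cep85l (1.09 ± 0.23 SE), Pcdhgb7 (1.09 ± 0.27 SE) and Fbrs (1.08 ± 0.22 SE). Pcdhgb7 was dim, at 1.05 to 1.92 in KC and 1.97 to 3.42 in IL-8 muscle. It lay below the median of the array (3.31 to 3.44) in every array except IL-8 5. Of 23 heat shock genes 4 were called higher (17.4%, against 1.61% of all genes), with a list median of 0.00. They were Bag3 (0.68 ± 0.15 SE) and Hspb6 (0.72 ± 0.17 SE) without overlap, and Hspb7 (0.97 ± 0.25 SE) and Dnajb5 (0.59 ± 0.16 SE) with overlapping arrays. BAG3 works with small heat shock proteins in the turnover of damaged sarcomere proteins. Chac1, a glutathione-degrading enzyme of the integrated stress response, was at 5.82, 5.43, 6.23 and 6.08 against 6.65, 6.74, 7.06, 6.67 and 6.96 and differed by 0.93 ± 0.16 (SE). It was the only call among 26 stress response genes (3.85%, against 1.61% of all genes). Pabpc1, a poly(A)-binding protein chosen after values were seen, was higher by 0.78 ± 0.13 (SE) without overlap.

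Among the lower genes, Sec61b had the smallest p of all genes tested. It encodes a subunit of the channel that passes proteins into the endoplasmic reticulum, and it was at 4.64, 4.96, 4.99 and 4.62 in KC and at 3.79, 3.76, 3.76, 3.82 and 3.90 in IL-8 muscle. The IL-8 arrays lay in a narrow band below all KC arrays, and the difference was -1.0 ± 0.11 (SE; adjusted p = 0.0279). Tmem256, a small membrane protein gene, was at 6.89, 7.27, 7.25 and 7.58 against 5.95, 5.94, 6.21, 6.24 and 6.38 (-1.10 ± 0.15 SE). Btbd35f1 had the largest lower difference by the naming rule (-1.51 ± 0.36 SE), and it belongs to a family of similar copies on chromosome X, so its signal may be shared. The histone gene H4c9 (-0.96 ± 0.20 SE), likewise of a multigene family, the small mitochondrial proteins Chchd1 (-0.94 ± 0.19 SE) and Smim26 (-0.93 ± 0.14 SE), and Commd1 (-0.97 ± 0.17 SE) also separated completely. Of the 229 lower genes without overlap, 90 were predicted genes, receptor families, gene segments or small RNAs and were left out of this naming, against 6 of 168 higher genes.

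The miRNA entries with calls, chosen after values were seen, were 4 higher and 2 lower of 529 (0.756% and 0.378%). These shares were below those of all genes (1.61% and 1.41%). Mature sequences taken from the RefSeq table on GRCm38.p6 are shown with the seed (bases 2 to 8) in capitals. No seed was shared between the sequences shown. For Mir1a-1 only the 5p arm is shown, so its other arm was left out of this comparison of seeds. Mir5099 has no sequence here.
miR-1a-1-5p: aCAUACUUcuuuauaugcccaua
miR-5125: uCUGCCUGggauuuccuugu
miR-1192: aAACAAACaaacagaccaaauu
miR-3076-3p: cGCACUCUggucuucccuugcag
miR-3475-5p: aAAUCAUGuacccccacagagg
miR-3475-3p: uCUGGAGGcacaugguuugaa
The array entry does not tell mature arms from the precursor. Mir1a-1, 1 of the precursors of a muscle miRNA, was at 2.69, 1.28, 1.23 and 1.357 in KC and at 2.33, 2.53, 3.26, 2.66 and 2.56 in IL-8 muscle. KC 1 lay with the IL-8 arrays, and the difference was 1.03 ± 0.29 (SE; adjusted p = 0.096). Its host transcript Mir1a-1hg was at 6.58, 6.09, 5.77 and 5.50 against 6.77, 7.27, 7.18, 7.20 and 6.77 without overlap (1.05 ± 0.20 SE). Mir5125 was at 5.27, 5.82, 4.89 and 4.34 against 6.28, 6.36, 6.67, 6.42 and 6.98 (1.46 ± 0.25 SE), and Mir5099 at 8.30, 8.07, 6.89 and 6.66 against 8.49, 8.86, 8.99, 9.0 and 9.17 (1.42 ± 0.31 SE). Neither overlapped. Mir1192 was higher by 0.82 ± 0.20 (SE), and Mir3076 and Mir3475 were lower by -0.75 ± 0.15 (SE) and -0.90 ± 0.22 (SE). Mir1a-1 and Mir3076 were dim, below the median of the array (3.31 to 3.44) in every array.

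The receptors and ligands of the chemokine axis did not pass the test. All 12 genes of that list were not called, with 0 at an unadjusted p below 0.05 and a median of -0.03. Cxcr2 was at 2.41, 2.79, 2.85 and 3.03 in KC and 3.21, 3.03, 2.67, 2.24 and 2.68 in IL-8 muscle, and its difference of 0.00 had a 95% interval of -0.42 to 0.42. Cxcr1 differed by -0.02 with an interval of -0.23 to 0.19. Cxcl1, which encodes the injected KC itself in its endogenous form, was at 3.38, 2.99, 3.47 and 3.32 in KC and 3.77, 2.96, 3.41, 3.40 and 3.65 in IL-8 muscle, a difference of 0.15 with an interval of -0.21 to 0.50. The median of all entries was 3.31 to 3.44 in these arrays, and these 3 genes were near or below that level. Of 24 genes of ERK feedback and the immediate early response 0 were called (median 0.07), and of 25 interferon-stimulated genes 0 (median -0.10). Of 16 NF-kB genes 1 was called (6.25%, against 1.61% of all genes higher), Rela, which was higher by 0.90 ± 0.21 (SE).

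Markers of other cell types were not called for most lists. In bulk muscle, fewer cells of a type and less RNA per cell cannot be told apart. Of 16 neutrophil markers 0 were called and 0 had an unadjusted p below 0.05 (median 0.02), with list means of 2.55 to 2.83 in KC and 2.60 to 3.00 in IL-8 muscle. Ly6g, the defining surface marker of mouse neutrophils, was at 1.45 to 1.65 in KC and 1.48 to 1.86 in IL-8 muscle. Of 16 macrophage markers 0 were called (median -0.26), and KC 1 had the lowest list mean, 4.13. All 14 fibroblast markers had negative differences without a call (median -0.41, list means 6.74 to 8.01 in KC and 6.38 to 7.59 in IL-8 muscle). Tendon markers ranged widely within both groups, with list means of 3.92 to 6.94 in KC and 4.22 to 6.89 in IL-8 muscle. Endothelial markers were called higher in 3 of 16 (18.8%, against 1.61% of all genes), Robo4 (0.61 ± 0.12 SE), Sox18 (0.68 ± 0.17 SE) and Eng (0.82 ± 0.22 SE), with list means of 4.97 to 5.53 against 5.41 to 5.82. Their part in the other differences was not tested.

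Fibre type genes did not pass the test. Of 16 fast fibre and 15 slow fibre sarcomere genes 0 were called, with medians of 0.00 and 0.06. Myh2, the myosin of IIA fibres, was at 8.32, 7.67, 5.77 and 6.96 in KC and 7.85, 9.26, 9.63, 10.00 and 7.54 in IL-8 muscle, a difference of 1.68 (95% interval 0.41 to 2.94; adjusted p = 0.142) with overlapping arrays. Of 21 genes of the neuromuscular junction and denervation 2 were called higher (9.52%, against 1.61% of all genes). Chrnb1, the beta subunit of the acetylcholine receptor, was at 5.10, 5.34, 5.28 and 4.84 against 5.69, 5.92, 5.78, 5.84 and 6.38 (0.78 ± 0.16 SE), without overlap. Hdac4 was higher by 0.97 ± 0.28 (SE; adjusted p = 0.0972, limma) with overlapping arrays. Of 21 myostatin and activin pathway genes 0 were called, of which Acvr1b (0.58 ± 0.16 SE, adjusted p = 0.084) stood at the fold threshold.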

How the data were processed

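Muscle RNA was hybridised to Affymetrix mouse gene 2.0 ST arrays. The values deposited by the authors are on the log2 scale, 1 per array entry. The submitters' processing notes name RMA, affy 1.36.1 and R 2.15.1. This method corrects the background, quantile normalizes and summarizes the probes, so every array has nearly the same overall distribution and differences are relative to it. Of 25206 entries, 23185 carried 1 gene symbol in the platform annotation and were tested, and 2021 had none. All 23185 matched the RefSeq gene table of GRCm38.p6, which gave chromosome, biotype and gene span. Sequences came from the RefSeq tables of the same build.

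The 5 IL-8 and 4 KC arrays were grouped by their labels and fitted with limma 3.58.1 in R 4.3.3 (lmFit, eBayes). Calls needed an adjusted p no higher than 0.1 with at least a 1.5-fold change, the limits in the methods of the study. Its comparative marker selection module was not run. With 126 splits of the arrays, the smallest exact permutation p is 0.00794, so a Welch t-test and the exact test served as alternatives. The script was tested on simulated data. The precision is limited by the number of arrays. Named genes were the 15 largest in each direction among called genes without overlap, up to 6 called members of each list (2 with the smallest p where none was called) and 11 fixed genes, and others are said to be chosen after values were seen or were taken from a list. The arrays, gene lists and clock windows were chosen with earlier results of these data known. Lists are described by counts and medians without a test. Of the listed genes, 87 had no named entry and were not analysed here. Alternatives changed the test, the normalization, the threshold, the filter on dim genes, a block by replicate number and the trend with gene span, and left out each array. Figures were drawn with matplotlib.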

Additional observations from a re-analysis of the deposited data

Results flagged for a closer look

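In 484 groups of 4 or 5 arrays (1 gene or list in 1 group), 40 had an array whose gap to its nearest neighbour was large against the range of the group, where chance gives about 1 in 20 (5%). Most of the 40 involved IL-8 1 or IL-8 5.

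In IL-8 1 the liver transcripts stood above the other 4 IL-8 arrays, with Alb at 7.70 (3.14 to 3.69 in the others), Fgb at 6.82 (1.80 to 2.146), Hp at 8.40 (3.81 to 4.80) and a liver list mean of 5.83 (2.77 to 2.95). Gzma (1.68) and Mrps33 (5.67) were also highest there, as was the mean of the B-cell, plasma cell and MHC II markers (4.78). Of the genes called higher with IL-8, several were lowest in this array, with Ryr1 at 9.51 (10.6 to 10.95 in the others), Kmt2d at 4.64 (6.13 to 6.40), Kdm6b at 5.13, Ep300 at 5.76, Med13l at 5.86, Wdfy3 at 5.64, Mef2d at 7.61, Tfeb at 5.08 and Irs2 at 4.18. Insr (6.01) and Abcc9 (8.52), which were not called, were lowest there too. The list means of the chromatin genes (5.47, against 5.81 to 5.91) and the giant sarcomere, cytolinker and membrane proteins (6.88, against 7.27 to 7.36) followed.

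In IL-8 5 the atrophy ligases Trim63 (10.3, against 8.18 to 8.46) and Fbxo32 (10.7, against 7.25 to 8.10) stood far above the other IL-8 arrays. Klf15 (6.63), Ier3 (6.02), Cep85l (8.16) and Mir3076 (2.63) were also highest in this array, with the list means of the FoxO genes (7.20), the proteasome subunits (8.08) and the antioxidant and metallothionein genes (7.13). Dbp (7.47), Gadd45b (5.42) and the fibroblast gene Dpt (5.80, against 7.32 to 7.73) were lowest there. In IL-8 3 Snord13 was lowest, at 6.00 against 6.72 to 7.0.

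In KC 1 the macrophage list mean of 4.13 was below the other KC arrays (4.89 to 4.96), as was Adgre1 at 3.38 (4.01 to 4.09) and the antioxidant and metallothionein list mean at 6.02, while Mir1a-1 was above them at 2.69 (1.23 to 1.357). Cxcr1 was highest in KC 2 (3.42), the liver list mean in KC 3 (3.59, against 3.05 to 3.13) and Bhlhe40 in KC 4 (7.70).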

How the results depend on the processing

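The counts depended on how the spread between arrays was estimated and on which arrays were present, while all 700 genes kept their direction in each fit that left out arrays and in those with quantile normalization, median centring, array weights, the replicate block or the gene span trend removed. The 700 genes were chosen on these same arrays, so a kept direction is no independent check in any fit. The other settings reuse the same differences, so direction could not change there, and without dim genes 640 of the 700 were tested. A Welch t-test with Benjamini-Hochberg adjustment gave 0 calls and the exact permutation test 0 (3249 and 4060 genes at an unadjusted p below 0.05). Neither is the module that the study used for its arrays, which was not run. The share called higher was 53.4% of 700, 62.0% of 563 without the gene span trend (349 higher, 214 lower), 60.6% of 898 without dim genes, 59.6% of 623 after median centring and 48.9% of 666 after quantile normalization. Storey q-values gave 567 higher of 1026, array weights 1193 calls (676 higher, 517 lower) and no fold change minimum 1147 (566 and 581). An adjusted p of at most 0.05 left 1 gene, 0 higher and 1 lower. Replicate numbers are shared by KC and IL-8 arrays, but same-numbered arrays did not deviate together (correlations of -0.365, 0.119, 0.0579 and -0.0867), and with the replicate block 0 genes were called (3688 at an unadjusted p below 0.05). Leaving out single replicates gave 0 to 1741 calls, 0 to 942 higher and 0 to 799 lower, with 8 calls without IL-8 5 and 1 without KC 4. Alternatives chosen after seeing the data left out arrays in pairs. Without IL-8 1 and 5 there were 1046 calls (641 higher, 405 lower), and without KC 3 and 4 there were 0 (1922 genes at an unadjusted p below 0.05). Of 121 called genes among 194 examined by name, 15 were not called without the gene span trend and 22 without KC 2. The arrays give no count of molecules, and no detection call was used, so a difference in a dim entry is less certain than its SE alone says.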
